A study of Mus musculus with 5 samples.

Results

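The S100 genes encode small EF-hand proteins that bind calcium, and 10 of them, *S100a1*, *S100a3*, *S100a4*, *S100a6*, *S100a8*, *S100a9*, *S100a10*, *S100a11*, *S100a14* and *S100a16*, are described here across mouse libraries from tumor and lung that carry the label PMN-MDSC, for polymorphonuclear myeloid-derived suppressor cell. The markers of the tumor libraries go against that label, and they are called tumor libraries throughout. The 10 genes were taken by symbol from 18 S100 gene symbols among 55250 rows, and none was missing. The study compared 2 tumor libraries (numbers 2 and 3) with 3 lung libraries (numbers 1, 2 and 3) of mouse primary cells, all labelled wild type, with RNA drawn from no fewer than 2000000 sorted cells per library. PMN-MDSCs are cells of the neutrophil lineage that expand in cancer and restrain T cells. The tumor model, the strain and age of the mice, any drug treatment, the sort markers and any pooling of animals are not stated in the labels. Nothing in the labels ties a library to a separate animal, so p-values reflect spread among libraries alone, and that spread may be technical.

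S100 proteins carry a pair of calcium-binding loops, and most act as dimers that change shape when calcium enters the cell and then grip a partner protein. S100a8 and S100a9 join to form calprotectin, the most abundant protein complex of the neutrophil cytosol, which starves microbes of metals and, once released, acts as an alarm signal on innate immune receptors. Calprotectin is a widely used mark of neutrophils and of PMN-MDSCs, and S100a9 has been tied to the build-up of these cells in tumor-bearing mice. Other members belong to epithelia, fibroblasts or muscle, and several are raised in carcinomas.

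Levels are given in TPM, a share of transcripts that is corrected for length and scaled to 1000000 in each library, so levels of different genes can be set beside each other. Read counts are lost in this unit and the depth of a value is unknown. Unless stated otherwise, a difference is the mean log2(TPM + 1) in tumor minus that in lung, ± its SE. Adjusted p-values are Benjamini-Hochberg values from limma over the 16387 genes whose mean reached 1 TPM. A call required an adjusted p below 0.05 together with a 1.5-fold or larger difference. Folds are ratios of mean TPM.

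The label of the cells was checked against defining markers, and the tumor libraries went against it: their epithelial genes summed to more TPM than their neutrophil or leukocyte genes, the reverse of the lung libraries. All 16 neutrophil genes were lower in tumor, with summed levels of 679.9 and 2104 TPM in the tumor libraries and 17179 to 25539 TPM in the lung libraries. All 12 leukocyte genes of a second list were lower as well, summing to 766 and 2015 TPM in tumor and to 11863 to 13172 TPM in lung. Of 13 epithelial genes 12 were higher and 0 lower, and their sums were 6486 and 6533 TPM in tumor and between 58.9 and 121 TPM in lung. Fibroblast genes, 5 higher and 0 lower of 8, summed to 1202 TPM in tumor replicate 2, 224 TPM in tumor replicate 3 and 20.1 to 29.2 TPM in lung. None of the markers of these 4 lists was at 0 throughout either group. Of 10 monocyte and macrophage genes 4 were higher and 5 lower, and endothelial genes were lower for 7 of 7. B and T cell genes were lower for 5 of 6 tested, and lung epithelial genes for 7 of 7. The lung libraries thus also carried markers of other cells. Lung epithelial genes summed to 653, 176.5 and 142.9 TPM in lung replicates 1, 2 and 3. Endothelial genes summed to 172 to 306 TPM in lung and B and T cell genes to 126.5 to 281.9 TPM, each highest in lung replicate 1. In libraries of this kind, fewer cells of a type and less RNA per cell cannot be told apart, and the part that these cell types play in the S100 values was not tested.

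Of the 10 S100 genes, 5 were higher in tumor (*S100a1*, *S100a6*, *S100a10*, *S100a14* and *S100a16*), 3 were lower (*S100a8*, *S100a9* and *S100a11*, of which *S100a11* turned to higher when libraries were centred on leukocyte genes) and 2 were not called (*S100a3* and *S100a4*). Over all tested genes 58.6% were called, 31.6% as higher and 27.0% as lower, so a call alone does not set an S100 gene apart. That is a split of 5178 higher and 4431 lower genes, beside 13674 higher and 99 lower genes with the leukocyte centring and 4619 higher and 4980 lower genes with median-of-ratios scaling. The median difference of the 10 genes was 1.34, beside 0.018 over all tested genes. The ranges of the tissues did not overlap for 9 of the 10 genes, *S100a4* being the exception, with tumor above in 6 and below in 3. Over all tested genes the ranges did not overlap for 75.6%, with tumor above for 39.9% and below for 35.7%. A design of 2 against 3 libraries allows no exact permutation p below 0.1 for any single gene.

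**Figure D1:**
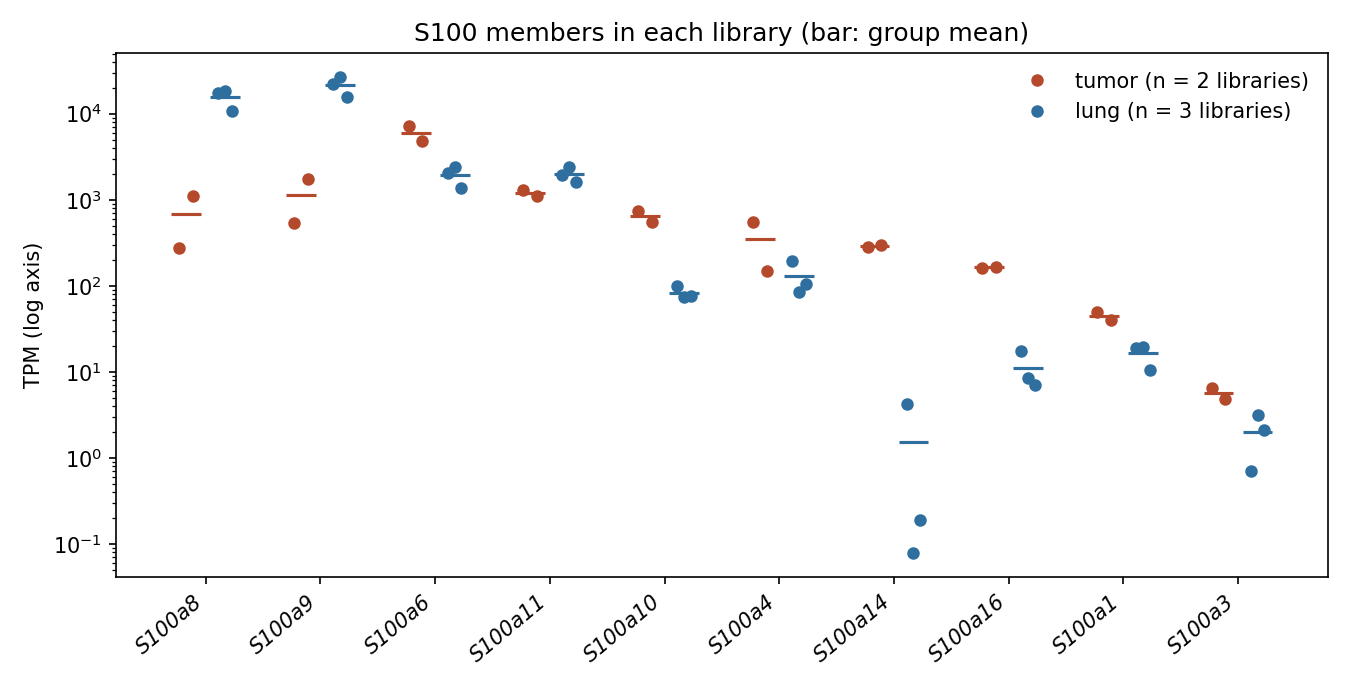
TPM of each S100 gene in every library on a log axis, with tumor libraries to the left of lung libraries for each gene; points are libraries and bars are group means. *S100a8* and *S100a9* lie at 10842 TPM or more in the 3 lung libraries, and *S100a14* is at 281 and 295 TPM in tumor and spans 0.0775 to 4.27 TPM in lung.

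All 10 genes lie on mouse chromosome 3 in GRCm38 by the GENCODE M21 annotation, and 8 of them form a single cluster. The cluster runs from *S100a1*, which starts at 90511034, to *S100a9*, which ends at 90695721. In between follow *S100a14* (90526856 to 90528837), *S100a16* (90537254 to 90543151), *S100a3* (90560578 to 90602702), *S100a4* (90603771 to 90606045), *S100a6* (90612882 to 90624181) and *S100a8* (90668978 to 90670035). *S100a11* (93520488 to 93526287) and *S100a10* (93555080 to 93564643) lie apart from the cluster. *S100a1* and *S100a9* are on the minus strand and the other members on the plus strand. Along the cluster, *S100a1*, *S100a14*, *S100a16* and *S100a6* were higher in tumor and the last pair, *S100a8* and *S100a9*, was lower. The neighbours *S100a11* and *S100a10* were called in opposite directions. Exons of *S100a3* and *S100a4* overlap those of the predicted gene *Gm42674* on the same strand, by 144 and 302 bases, and that gene was at 0 and 0.456 TPM in tumor and 0 to 0.561 TPM in lung. How reads of the overlap were divided was not tested.

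**Figure D2:**
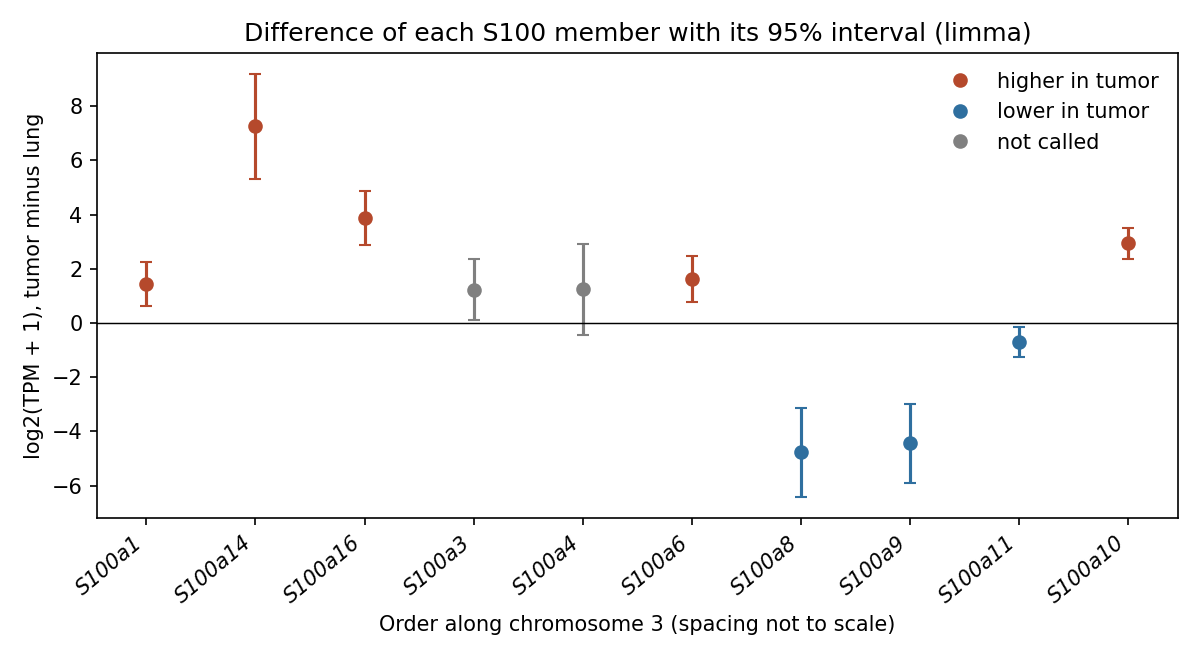
Difference of each S100 gene in log2(TPM + 1), tumor minus lung, with its 95% interval from limma (not adjusted for the number of genes), in order along chromosome 3. The called genes above 0 are *S100a1*, *S100a14*, *S100a16*, *S100a6* and *S100a10*, and those below 0 are *S100a8*, *S100a9* and *S100a11*, the last of which changed sign when libraries were centred on leukocyte genes.

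The 250 bases before the start of *S100a8*, *S100a9*, *S100a6* and *S100a11* are shown because these were the members with the highest mean TPM and because the first pair fell together while *S100a6* rose. Starts are those of RefSeq, which for *S100a6*, *S100a8* and *S100a11* lie inside the GENCODE gene. The stretches are RefSeq sequences of GRCm38.p6, read 5′ to 3′ on the strand of each gene, at chr3:90668821-90669070 (plus) for *S100a8*, chr3:90695722-90695971 (minus) for *S100a9*, chr3:90612644-90612893 (plus) for *S100a6* and chr3:93520246-93520495 (plus) for *S100a11*. Capitals mark matches, on either strand, to the TATA box TATAAA, the AP-1-type motif TGANTCA, the GC box GGGCGG, the PU.1-type motif GAGGAAG and the C/EBP-type motif TTGCNNCAA.
S100a8: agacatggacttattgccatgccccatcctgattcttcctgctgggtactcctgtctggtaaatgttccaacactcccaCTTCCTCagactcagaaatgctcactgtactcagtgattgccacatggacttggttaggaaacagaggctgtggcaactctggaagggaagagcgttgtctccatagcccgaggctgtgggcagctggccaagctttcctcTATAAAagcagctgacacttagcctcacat
S100a9: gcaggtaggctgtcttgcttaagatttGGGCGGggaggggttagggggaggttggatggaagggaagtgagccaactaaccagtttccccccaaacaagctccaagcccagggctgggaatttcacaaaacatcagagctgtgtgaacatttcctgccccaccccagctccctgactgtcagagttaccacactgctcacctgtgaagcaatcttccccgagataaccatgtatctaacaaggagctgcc
S100a6: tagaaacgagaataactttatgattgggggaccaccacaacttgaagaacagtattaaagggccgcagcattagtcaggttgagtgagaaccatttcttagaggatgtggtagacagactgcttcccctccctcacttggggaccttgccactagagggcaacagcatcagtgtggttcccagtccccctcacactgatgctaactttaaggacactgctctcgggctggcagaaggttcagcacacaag
S100a11: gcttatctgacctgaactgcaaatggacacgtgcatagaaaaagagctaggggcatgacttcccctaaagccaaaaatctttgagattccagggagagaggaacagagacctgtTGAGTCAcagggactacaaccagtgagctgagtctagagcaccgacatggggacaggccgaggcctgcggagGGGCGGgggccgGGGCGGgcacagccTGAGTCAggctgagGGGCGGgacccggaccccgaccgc

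Matches were searched in windows of 300 bases, 250 before and 50 from the start on, and those of the 4 genes did not overlap one another. *S100a8* held TATAAA from 30 to 25 bases before its start and a PU.1-type match from 171 to 165 bases before it. In *S100a9* TATAAA covered bases 1 to 6 from the annotated start, just past the printed stretch, and a GC box lay 223 to 218 bases before it. *S100a11* held 3 GC boxes and 2 AP-1-type matches, and the *S100a6* window held none of the 5 motifs. Of 32851 promoter windows, 13.6% held TATAAA, 13.6% the PU.1-type, 7.81% the AP-1-type, 2.08% the C/EBP-type motif and 35.7% a GC box. Of the 10 genes 8 had a window in the table. A match is only a run of letters and says nothing of binding in these cells.

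Calprotectin genes had the highest levels of the family in lung and fell in tumor. *S100a8* was at 274 and 1103 TPM in tumor replicates 2 and 3 and at 17209, 18258 and 10842 TPM in lung replicates 1, 2 and 3. Both tumor libraries were far below the lowest lung library, and tumor replicate 2 was the lower of the pair. The difference was -4.77 ± 0.64, 22.4-fold lower (adjusted p = 0.00323), and it was -3.77 without tumor replicate 2 and -5.78 without tumor replicate 3. *S100a9*, its partner, was at 530.0 and 1758 TPM in tumor and at 21889, 26811 and 15674 TPM in lung. Its difference was -4.44 ± 0.57, 18.8-fold lower (adjusted p = 0.00282), again with no overlap between the groups, and it was -3.57 without tumor replicate 2 and -5.30 without tumor replicate 3. *S100a9* ranked 5 to 6 and *S100a8* 6 to 8 among all genes in the lung libraries, whereas *S100a9* ranked 211 and 42 and *S100a8* 379 and 80 in tumor replicates 2 and 3. Together they made up 0.0804% and 0.286% of TPM in tumor and 2.65% to 4.51% in lung.

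Both genes moved with the neutrophil and leukocyte lists. Their summed TPM, divided by that of the 16 neutrophil genes, was 1.18 and 1.36 in tumor and 2.06, 1.76 and 1.54 in lung. Divided by the summed TPM of the 12 leukocyte genes it was 1.05 and 1.42 in tumor and 3.12, 3.42 and 2.23 in lung. Both quotients were lower in the tumor libraries than in any lung library, a comparison chosen after the values were seen and not tested. They are quotients of sums, in which abundant genes such as *Il1b* (difference -3.57) weigh most. Gene by gene, differences in the neutrophil list ran from -6.39 (*Camp*) to -1.63 (*Padi4*), with a median of -4.17. Those of *S100a8* (-4.77) and *S100a9* (-4.44) lay inside that wide range and below its median. The median of the leukocyte list was -3.26. Whether the pair fell beyond either list was not tested. With every library centred on the leukocyte list, which put the median difference of all tested genes at 3.40, *S100a8* and *S100a9* were still lower in tumor, at -1.39 (adjusted p = 0.00624) and -1.06 (adjusted p = 0.0328). The differences are smaller on that scale than on the deposited one. The centring subtracts unlike log2 shifts from tumor replicates 2 and 3 (-2.77 and -1.29), which puts a shared gap between them into nearly every gene. Its adjusted p-values, such as 6.89e-47 for *S100a14*, therefore do not measure the spread among libraries as those of the main fit do.

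*S100a9* exceeded *S100a8* in all 5 libraries. The ratio of their TPM was 1.94 and 1.59 in tumor and 1.27, 1.47 and 1.45 in lung. On the log2 scale it averaged 0.81 ± 0.20 in tumor (SD, n = 2) and 0.48 ± 0.11 in lung (SD, n = 3), a difference of 0.34 (exact permutation test, two-sided, p = 0.1, the smallest this design allows). The tumor ratios lay above the lung ratios, by little compared with the change of either gene.

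*S100a14*, an S100 gene of epithelia, had the largest difference of the 10. It was at 281 and 295 TPM in tumor and at 4.27, 0.0775 and 0.192 TPM in lung replicates 1, 2 and 3. The tumor libraries were close to each other, and lung replicate 1 stood above the other lung libraries. The difference was 7.26 ± 0.75, 190.4-fold (adjusted p = 0.0018). Without lung replicate 1 the ratio of means was 2141-fold (log2 difference 7.996), so the size of the fold rests on that library. The epithelial list moved with it, and among the lung libraries its sum was highest in lung replicate 1, at 121 TPM against 59.96 and 58.9 TPM in replicates 2 and 3. *S100a14* equalled 4.34% and 4.52% of the epithelial sum in tumor, and 3.53%, 0.129% and 0.326% of it in lung.

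*S100a16*, a broadly expressed S100 gene, was at 161 and 167 TPM in tumor and at 17.6, 8.44 and 7.07 TPM in lung. Every tumor value exceeded every lung value, and lung replicate 1 was again the highest of the lung libraries. The difference was 3.88 ± 0.39, 14.9-fold (adjusted p = 0.00173). In the authors' deposited table it was the only one of the 10 genes with a false discovery rate under 0.05, at 0.0356, whereas that of *S100a14* was 0.125 and that of *S100a8* 0.157. Those of *S100a10* and *S100a6*, both called here, were 0.293 and 0.368. These rates come from the authors' own test and not from the limma fit used here, so they are not like for like.

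*S100a6*, also called calcyclin, was the most abundant S100 gene in both tumor libraries. It was at 7174 and 4774 TPM in tumor and at 2052, 2386 and 1355 TPM in lung. It ranked 8 and 16 among all genes in tumor and 34 to 54 in lung. The difference was 1.64 ± 0.33, 3.09-fold (adjusted p = 0.0106), and the call ended without tumor replicate 2 (1.34, adjusted p = 0.0929) or lung replicate 3 (1.40, adjusted p = 0.0661). *Cacybp*, which encodes the calcyclin-binding protein, was higher too, at 60.1 and 45.6 TPM in tumor and 20.4, 12.6 and 18.9 TPM in lung (1.57 ± 0.27, adjusted p = 0.00627), a call that ended without tumor replicate 2 (1.38, adjusted p = 0.0594).

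*S100a10* encodes p11, an S100 protein that needs no calcium and that binds annexin A2 to hold plasminogen-activating complexes at the cell surface. It was at 742 and 554 TPM in tumor and at 100.1, 73.99 and 75.3 TPM in lung, with a wide gap between the groups. The difference was 2.95 ± 0.22, 7.80-fold (adjusted p = 0.0012). Its partner *Anxa2* was at 1232 and 1099 TPM in tumor and at 879, 902 and 749.7 TPM in lung (0.47 ± 0.17, adjusted p = 0.0597), so it did not pass the test, although it did without mitochondrially encoded genes (0.60, adjusted p = 0.0289). *Anxa2* TPM was 1.66 and 1.99 times that of *S100a10* in tumor, and 8.79, 12.2 and 9.96 times in lung. On the log2 scale the ratio of *S100a10* to *Anxa2* was -0.86 ± 0.18 in tumor (SD, n = 2) and -3.35 ± 0.24 in lung (SD, n = 3), a difference of 2.49 (exact permutation test, two-sided, p = 0.1, the smallest this design allows). Such a ratio within a library does not depend on how libraries are scaled.

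**Figure D3:**
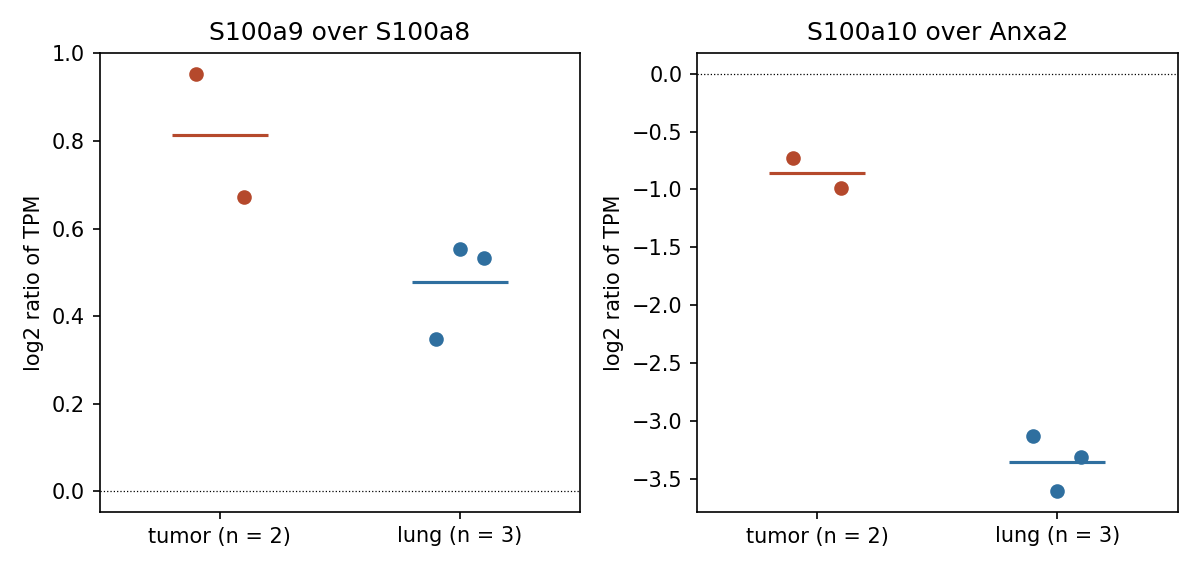
Log2 ratio of TPM within each library for *S100a9* over *S100a8* (left) and *S100a10* over *Anxa2* (right), tumor left of lung; points are libraries, bars are group means, and the dotted line marks equal TPM. The *S100a10* ratios are -0.73 and -0.99 in tumor and lie between -3.61 and -3.14 in lung.

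*S100a4*, known as metastasin and as a fibroblast protein that binds non-muscle myosin, was the only member whose groups overlapped. It was at 552 and 150.1 TPM in tumor and at 195, 85.4 and 105 TPM in lung. Tumor replicate 2 was above all lung libraries and tumor replicate 3 within their range. The difference of 1.25 ± 0.66 did not pass (adjusted p = 0.158) and was 0.31 without tumor replicate 2 and 2.18 without tumor replicate 3, and its 95% interval, -0.43 to 2.93, holds both no change and a large rise. The tumor libraries also differed in the fibroblast list, with *Col3a1*, a fibrillar collagen gene, at 917 TPM in tumor replicate 2 and 159 TPM in tumor replicate 3. Not every gene of the list did so, as *Postn* was at 5.95 and 5.89 TPM. Divided by the summed TPM of the fibroblast list, *S100a4* was 0.459 and 0.670 in tumor and 6.68, 3.30 and 5.24 in lung. The lung level of *S100a4* thus stood beside few fibroblast transcripts, and a link to fibroblasts was not tested.

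*S100a1*, an S100 gene best known from heart and skeletal muscle, was at 49.4 and 39.97 TPM in tumor and at 19.1, 19.4 and 10.5 TPM in lung. The groups did not overlap, and the difference was 1.44 ± 0.32, 2.73-fold (adjusted p = 0.0138). The call ended without tumor replicate 2 (1.29, adjusted p = 0.109) or tumor replicate 3 (1.59, adjusted p = 0.0646). *S100a3*, an S100 gene of the hair follicle, had the lowest level of the 10 genes in both tumor libraries, at 6.46 and 4.77 TPM, against 0.695, 3.17 and 2.09 TPM in lung. Its difference of 1.23 ± 0.44 did not pass (adjusted p = 0.0605; 95% interval 0.10 to 2.36), although the tumor values lay above the lung values. When mitochondrially encoded genes, which held 9.005% and 15.1% of TPM in tumor and 2.67% to 4.397% in lung, were taken out before scaling, it passed (1.35, adjusted p = 0.0464).

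*S100a11*, or calgizzarin, whose best known partner is annexin A1, had the smallest difference of the called members. It was at 1285 and 1119 TPM in tumor and at 1945, 2380 and 1623 TPM in lung. Its difference was -0.71 ± 0.22, 1.65-fold lower (adjusted p = 0.0404), just past both limits. Leaving out any of the 5 libraries ended the call (adjusted p = 0.0683 to 0.201), and with the leukocyte centring the sign turned (2.67). A pseudogene, *S100a11-ps*, was listed at 0 in both tumor libraries and at 0, 0 and 0.777 TPM in lung. Whether it shares reads with *S100a11*, and how such reads were divided, was not tested. *Anxa1* went the other way from *S100a11* on the deposited scale, at 2142 and 2067 TPM in tumor and 519, 697 and 444 TPM in lung (1.95 ± 0.23, adjusted p = 0.00241).

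The make-up of the family differed between the tissues. *S100a8* and *S100a9* held 7.27% and 28.7% of the summed TPM of the 10 genes in tumor replicates 2 and 3, and 90.02%, 90.1% and 89.3% in the lung libraries (exact permutation test, two-sided, p = 0.1, the smallest possible here). The lung shares lay within 1 percentage point of each other while the tumor shares were far apart. *S100a6* held 64.9% and 47.9% in tumor and 4.56% to 4.77% in lung. *S100a11* held 11.6% and 11.2% in tumor and 4.48% to 5.47% in lung, a larger share in tumor although its TPM was lower there. The 10 genes together summed to 11055 and 9966 TPM in tumor and to 43432, 50026 and 29695 TPM in lung. Without *S100a8* and *S100a9* the sums were 10252 and 7104 TPM in tumor and 4334, 4957 and 3179 TPM in lung, the larger sums being those of the tumor libraries. Among these 8, *S100a6* held 69.98% and 67.2% in tumor and 42.6% to 48.1% in lung, and *S100a11* held 12.5% and 15.8% in tumor and 44.9% to 51.1% in lung.

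**Figure D4:**
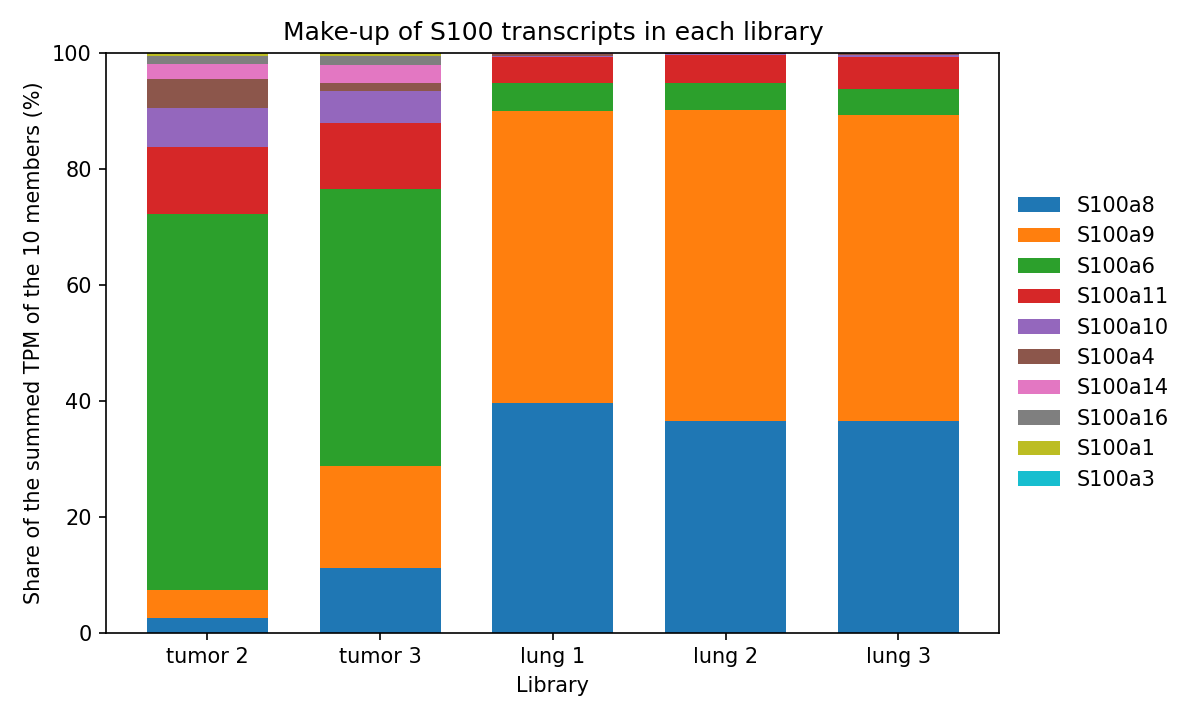
Share of each S100 gene in the summed TPM of the 10 genes, in percent, as 1 stacked bar per library with tumor libraries left of lung libraries. *S100a8* and *S100a9* fill 89.3% to 90.1% of the lung bars, and *S100a6* is the largest part of the tumor bars at 64.9% and 47.9%.

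By mean TPM in tumor the order was *S100a6*, *S100a11*, *S100a9*, *S100a8*, *S100a10*, *S100a4*, *S100a14*, *S100a16*, *S100a1* and *S100a3*. The genes from *S100a9* to *S100a14* are not each separated from the next beyond the spread of the tumor libraries, since *S100a8* averaged 688 ± 586 TPM, *S100a10* 648 ± 133 TPM, *S100a4* 351 ± 284 TPM and *S100a14* 288 ± 9.80 TPM (SD, n = 2). *S100a11*, at 1202 ± 117 TPM, and *S100a9*, at 1144 ± 869 TPM, also overlapped. By mean TPM in lung the order was *S100a9*, *S100a8*, *S100a11*, *S100a6*, *S100a4*, *S100a10*, *S100a1*, *S100a16*, *S100a3* and *S100a14*. There the spreads of *S100a9* (21458 ± 5581 TPM) and *S100a8* (15436 ± 4014 TPM) overlapped, as did those of *S100a1* (16.4 ± 5.06 TPM) and *S100a16* (11.03 ± 5.71 TPM), and of *S100a3* (1.99 ± 1.24 TPM) and *S100a14* (1.51 ± 2.39 TPM). Likewise *S100a11* (1983 ± 380 TPM) and *S100a6* (1931 ± 526 TPM) did not differ beyond their spread, nor did *S100a4* (129 ± 58.4 TPM) and *S100a10* (83.1 ± 14.7 TPM) (SD, n = 3). Such spreads do not compare genes within a library. In every lung library *S100a9* was above *S100a8*, *S100a4* above *S100a10* and *S100a1* above *S100a16*. In both tumor libraries *S100a9* was above *S100a8* and *S100a10* above *S100a4*. The order of *S100a11* and *S100a6*, and of *S100a3* and *S100a14*, changed between lung libraries.

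Genes with profiles most like those of 4 members were found by the distance between log2(TPM + 1) profiles over the 5 libraries, each profile centred on its own mean. Nearest to *S100a8* were *Hp*, which encodes haptoglobin (distance 0.345), *Lrg1*, a secreted leucine-rich glycoprotein gene of neutrophil granules and liver (0.347), and *Wfdc21* (0.441). *Hp* was at 22.6 and 92.9 TPM in tumor and 1235 to 1727 TPM in lung. Nearest to *S100a14* were the basal keratin gene *Krt17* (0.378) and *Dynap* (0.522). *Krt17* was at 342 and 347 TPM in tumor and 5.38, 0.158 and 0.826 TPM in lung, with lung replicate 1 highest as for *S100a14*. Nearest to *S100a10* were *Spire2* (0.0926), *Rras2* (0.107) and *Pxdc1* (0.129). Nearest to *S100a4* were *Serpinh1*, the collagen chaperone gene (0.406), *B3gnt9* (0.494) and the secreted Wnt modulator gene *Dkk3* (0.514), none of which was called. *Serpinh1* was at 44.6 and 16.9 TPM in tumor and 7.97 to 19.5 TPM in lung, and highest in tumor replicate 2, as *S100a4* was. These distances describe 5 libraries and carry no test.

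Of 7 other S100 genes listed, 2 reached the filter and neither was called. *S100a13* was at 39.3 and 31.4 TPM in tumor and 27.6, 18.04 and 17.1 TPM in lung (0.75 ± 0.27, adjusted p = 0.0582), and its lung mean of 20.9 TPM was above that of *S100a1*, *S100a16*, *S100a3* and *S100a14*. It passed without lung replicate 1 (0.96, adjusted p = 0.0226), without mitochondrially encoded genes (0.88, adjusted p = 0.0347) and with a filter of 5 TPM (adjusted p = 0.0485). *S100a7a*, the mouse relative of psoriasin, was at 5.93 and 0.271 TPM in tumor and 0.0877, 9.17 and 0.705 TPM in lung, a wide spread in both groups (0.16 ± 1.23, adjusted p = 0.92). *S100a5*, *S100b*, *S100g*, *S100z* and the unlisted *S100a2* had a mean below 1 TPM over the libraries, and *S100a7l2* was listed at 0 in each library. Of 7 genes for large S100-fused proteins of the skin barrier, *Tchh* alone reached the filter, at 1.62 and 1.42 TPM in tumor and 0.648 to 0.725 TPM in lung (adjusted p = 0.122), and passed without lung replicate 3 (adjusted p = 0.0316) or tumor replicate 3 (adjusted p = 0.0207).

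Among 16 tested genes for S100 partners and receptors 7 were higher, 6 lower and 3 not called, with a median of 0.43. The shares over all tested genes were 31.6% higher and 27.0% lower. The lower genes included receptors of released S100 proteins. *Ager*, which encodes the receptor RAGE and is also abundant in alveolar cells, was at 0.126 and 0.367 TPM in tumor and 6.15 to 6.44 TPM in lung (-2.56 ± 0.21, adjusted p = 0.00132; 0.82 with the leukocyte centring). *Mcam*, an adhesion molecule that binds calprotectin subunits, was at 8.02 and 7.12 TPM in tumor and 31.7 to 44.4 TPM in lung (-2.11 ± 0.21, adjusted p = 0.00166; 1.26 with that centring). *Tlr4*, the endotoxin receptor that calprotectin engages, was at 9.07 and 24.1 TPM in tumor and 28.3, 32.1 and 38.4 TPM in lung and did not pass (-1.08 ± 0.42, adjusted p = 0.0763), although it passed without tumor replicate 3 (-1.74, adjusted p = 0.0163) and was 2.29 with the leukocyte centring. *Bsg*, which encodes basigin, a receptor for S100a9, was higher, at 515 and 499 TPM in tumor and 91.6, 86.7 and 71.7 TPM in lung (2.60 ± 0.17, adjusted p = 0.00101). *Plat*, the gene of tissue plasminogen activator, which binds p11, was at 47.7 and 25.7 TPM in tumor and 0.580 to 1.73 TPM in lung (4.12 ± 0.37, adjusted p = 0.00149). *Myh9*, the myosin heavy chain bound by S100a4, was lower, at 235 and 263 TPM in tumor and 576 to 728 TPM in lung (-1.40 ± 0.17, adjusted p = 0.00252), and turned to higher with the leukocyte centring (1.97).

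Of 11 tested genes of other EF-hand proteins, 2 were higher, 3 lower and 6 not called, with a median of -0.29. Beside them stand 31.6% higher and 27.0% lower among all tested genes. The calpain subunit genes *Capn2* and *Capns1* were higher, with *Capn2* at 110.3 and 88.97 TPM in tumor and 22.1 to 24.8 TPM in lung, while *Capn1* was lower, at 68.6 TPM in both tumor libraries and 169 to 204 TPM in lung, and turned to higher with the leukocyte centring (1.96). *Lcp1*, the plastin gene of leukocytes, was at 78.03 and 285 TPM in tumor and 2518 to 2618 TPM in lung, and *Efhd2* was the remaining lower gene, turning to higher with that centring (1.78).

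Genes that lie near the S100 cluster or in the neighbouring skin-barrier region did not share a direction. Of 17 tested 9 were higher, 4 lower and 4 not called, with a median of 1.08. Over all tested genes 31.6% were higher and 27.0% lower, with a median of 0.018. The share of higher genes was larger in this list, a difference that was not tested. *Sprr1a*, a cornified envelope gene, was at 27.3 and 24.4 TPM in tumor and 0 to 0.324 TPM in lung (4.57 ± 0.23, adjusted p = 0.000901). *Cks1b*, a cell cycle gene, was at 84.6 and 49.3 TPM in tumor and 3.15 to 5.19 TPM in lung (3.60 ± 0.32, adjusted p = 0.00146). *Ilf2* was higher, at 25.9 and 24.2 TPM in tumor and 7.33 to 8.36 TPM in lung. *Dennd4b* was lower, at 4.23 and 7.73 TPM in tumor and 27.7 to 40.07 TPM in lung (-2.30 ± 0.30, adjusted p = 0.0029; 1.07 with the leukocyte centring), as were *Gatad2b*, *Crtc2* and *Pglyrp4*, which also changed sign with that centring (2.29, 2.48 and 1.86). The call of *Crtc2* ended without tumor replicate 2 (-0.74, adjusted p = 0.0605).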

How the data were processed

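RNA was measured in 5 libraries labelled PMN-MDSC, 2 from tumor and 3 from lung, grouped by tissue label and numbered by title, with 20000000 paired reads stated for each. Transcripts of GENCODE mouse M24 were quantified by the authors with Salmon 0.9.1, per the series' design text, and deposited as TPM, which sum to 1000000 in each library, so a rise of some transcripts lowers the others. Salmon divides reads among similar transcripts, which makes values of similar genes less certain. The authors' deposited p-values and false discovery rates were used only to describe their own calls. Of 55276 rows, 26 held spreadsheet dates in place of symbols (0.0650% to 0.0826% of TPM) and were left out.

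Tumor was compared with lung in limma 3.58.1 (R 4.3.3) with an intensity trend, on log2(TPM + 1) of the 16387 genes whose mean reached 1 TPM, without a block. Calls used the limits of the design text, 0.05 and 1.5-fold. The log2(TPM + 1) scale understates changes of low genes. The steps were tested on simulated data with independent genes, few of them changed. In the deposited data 58.6% of tested genes were called, so the simulation does not vouch for these calls. The replicate number in the titles is shared by tumor and lung for 2 numbers only. Ratios and shares within libraries were tested by exact permutation. The named genes are the 10 members, up to 4 genes with the smallest p in each other list and the 3 nearest profiles of 4 members, of which 1 is not reported here. Genes named beyond that rule, among them partners of members, *Efhd2*, *Col3a1* and genes that complete a count, were chosen after their values were seen. The members and lists were chosen with earlier results of these data known. Gene positions are from GENCODE M21 and promoters from RefSeq, both GRCm38, and the M24 annotation was not used here. Alternatives were other pseudocounts (0.1 and 0.01), filters (none and 5 TPM), scalings, limma settings, a fold limit of 2, a replicate block and leaving out each library.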

Additional observations from a re-analysis of the deposited data

How the results depend on the processing

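*S100a8*, *S100a9*, *S100a10*, *S100a14* and *S100a16* kept their call and direction under all 16 alternatives. Of these genes only *S100a16* had a false discovery rate under 0.05 in the authors' deposited table, which came from a different test. *S100a14* ranged from 6.85 to 10.63, *S100a16* from 3.64 to 7.26 and *S100a10* from 2.74 to 6.32, with the upper ends from centring on the leukocyte list, and *S100a8* from -5.78 to -1.39 and *S100a9* from -5.30 to -1.06. That centring raised the S100 genes called higher from 5 to 8 and gave 13674 higher and 99 lower genes in all, against 5178 and 4431 before. It turned *S100a11* (2.67), *Capn1* (1.96), *Myh9* (1.97), *Efhd2* (1.78), *Gatad2b* (2.29), *Crtc2* (2.48) and *Tlr4* (2.29) to higher in tumor and the sign of *Ager* (0.82), *Mcam* (1.26), *Pglyrp4* (1.86) and *Dennd4b* (1.07) to positive with no call. The centring raises the log2 difference of every gene by the same amount, and the median of all tested genes went from 0.018 to 3.40. Any gene with a fall smaller than that amount changes sign, so these turns follow from the centring itself. Calls under that centring carry the limit on its p-values given above. Median-of-ratios scaling gave 4619 higher and 4980 lower genes, and the same 5 and 3 S100 genes, with the median of all tested genes at -0.15. Taking out mitochondrial genes put that median at 0.13 and gave 6 S100 genes higher and 2 lower. Leaving out each library in turn gave 3 to 5 S100 genes higher, 2 lower in each case, and 6285 to 8848 genes called, lowest without tumor replicate 2, where *S100a10*, *S100a14* and *S100a16* remained higher. With 1 tumor library left, it is assumed to vary like the lung libraries. The difference in the share of *S100a8* and *S100a9* was -61.1 percentage points without tumor replicate 2 and -82.5 without tumor replicate 3. *S100a7a*, not called, changed sign without lung replicate 1 (-0.49), lung replicate 3 (-0.16) or tumor replicate 2 (-1.07), and was 1.38 without tumor replicate 3. *Tlr4* was called with median-of-ratios scaling (-1.28, adjusted p = 0.0499). *Lcp1* was not called under the leukocyte centring (-0.72, adjusted p = 0.2). *S100a11* was no longer called with no filter (adjusted p = 0.126), a pseudocount of 0.01 (adjusted p = 0.0534), no trend (adjusted p = 0.0515), mitochondrial genes taken out (adjusted p = 0.0746), or a fold limit of 2. The replicate block, which can use only numbers 2 and 3, left 7111 genes called, 5 S100 genes higher and 2 lower, ended the calls of *S100a11* (adjusted p = 0.116) and *Crtc2* (adjusted p = 0.0533), gained that of *S100a13* (0.96, adjusted p = 0.047) and gave *S100a7a* as -0.49. Across genes, deviations from the group means of the tumor and lung library of the same number correlated at 0.0034 for number 2 and 0.0833 for number 3. With 2 tumor libraries their deviations are mirror images, so these values cannot decide whether the numbers mark pairs. The main fit did not treat the number as a pairing. Beyond the stated 20000000 paired reads per library, the reads counted for each gene are unknown, so no counting limit can be set for low genes such as *S100a3*.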
